A study of Homo sapiens with 3 samples.

Results

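Matrix metalloproteinases (MMPs) are zinc-dependent enzymes that cut the proteins of the extracellular matrix, and the tissue inhibitors of metalloproteinases (TIMPs) bind and block them. The peaks of RUNX2 and of its partner CBFB were examined at 10 genes of this system, namely MMP13, MMP1, MMP3, MMP2, MMP9, MMP14, MMP16, TIMP1, TIMP2 and TIMP3. The genes were taken from a list of names that was chosen with earlier results of these data known. A peak was counted for a gene when any base of it lay within 25 kb of the annotated gene body. This is the reach that the study used to assign peaks. By this rule, 9 of the 9941 RUNX2 peaks and 22 of the 27246 CBFB peaks belonged to the 10 genes, and no peak was shared by a pair of them.

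ChIP-seq, in which the DNA bound by a protein is precipitated with an antibody and sequenced, had been done in untreated SAOS2 cells, a human osteosarcoma line that lacks p53, kept at low passage in serum-containing medium. RUNX2 was precipitated with a custom-made antibody and CBFB with a commercial one (Bethyl), and there was 1 library for each antibody and 1 library of input DNA, which was not used here. As no library was repeated, the counts below describe these libraries and no p-value is given. The lists hold no read counts, so the depth is unknown, and they hold no expression values, so the identity of the cells could not be checked against marker genes. A peak was in a list only from a score of 50 upwards, and a gene without a peak is a gene without a site that passed this limit.

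RUNX2 binds DNA through its Runt domain and drives the differentiation of osteoblasts, while CBFB does not contact DNA and strengthens the binding of RUNX proteins. Osteoblasts and osteosarcoma cells remodel collagen with MMPs. MMP13 is known as a RUNX2-dependent collagenase of bone and cartilage. MMP14, a protease anchored in the cell membrane, binds TIMP2 and uses it as a receptor for the inactive form of MMP2, which is then cut into the active gelatinase.

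RUNX2 peaks were found at 3 of the 10 genes, MMP2, MMP14 and TIMP2. CBFB peaks were found at these 3 and also at MMP16 and TIMP1. MMP13, MMP1, MMP3, MMP9 and TIMP3 had no peak of either list within 25 kb. Among all 20163 protein-coding genes, 36.0% had a RUNX2 peak and 62.2% had a CBFB peak by the same rule. Both kinds of peak were present at 35.1%, a CBFB peak alone at 27.1%, a RUNX2 peak alone at 0.962%, and 36.9% had no peak. The RUNX2 count of the 10 genes was close to this background, and the difference between 5 of 10 genes without any peak and 36.9% was not tested. Long genes have more room for peaks. When all genes were divided by length into 5 groups of equal size, the shares of the groups to which the 10 genes belonged added up to 3.62 genes with a RUNX2 peak and 6.23 with a CBFB peak, against 3 and 5 observed.

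**Figure D1:**
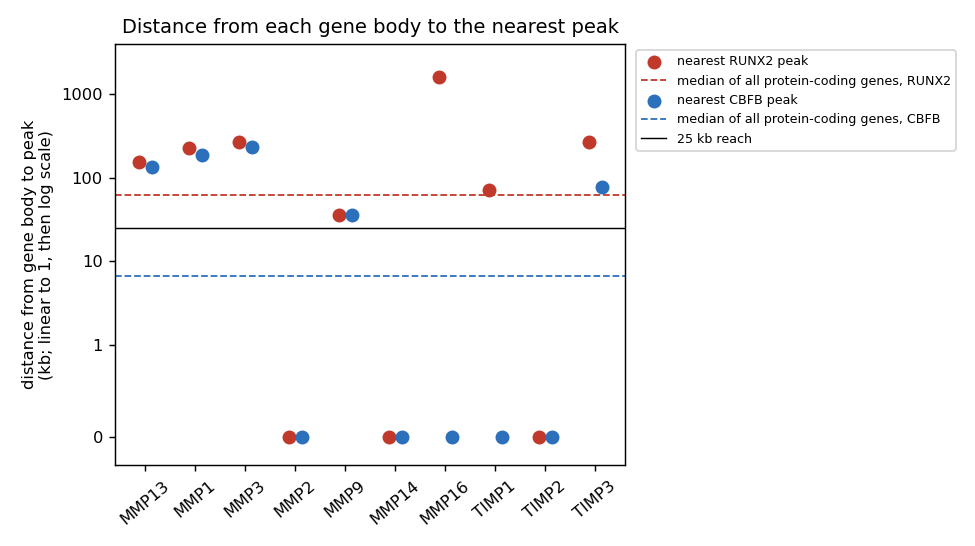
Distance in kb (linear to 1 kb, then log scale) from each gene body to the nearest RUNX2 peak (red) and CBFB peak (blue), where 0 is a peak that touches the gene. The dashed lines are the medians over all protein-coding genes, 62.9 kb for RUNX2 and 6.74 kb for CBFB, and the black line is the reach of 25 kb. MMP2, MMP14 and TIMP2 have both kinds of peak at 0, and MMP16 combines a CBFB peak at 0 with the farthest RUNX2 peak.

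The collagenases MMP13 and MMP1 cut fibrillar collagen, and the stromelysin MMP3 cuts proteoglycans and activates other MMPs. All 3 genes lie on the minus strand of chromosome 11 (MMP13 from 102813724 to 102826461, MMP1 from 102660132 to 102668891 and MMP3 from 102706532 to 102714340, hg19). The RUNX2 peak nearest to MMP13 was 153 kb upstream, at the start of DYNC2H1, and the nearest CBFB peak was 136 kb upstream, in the UTR of DCUN1D5. The nearest RUNX2 peaks were 228 kb from MMP1 and 265 kb from MMP3, and the nearest CBFB peaks were 186 kb and 232 kb away. The RUNX2 peak was nearer than that of MMP13 in 67.6% of all protein-coding genes and nearer than that of MMP3 in 78.1%. For CBFB these shares were 85.0% and 90.2%.

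These genes belong to a cluster of 9 MMP genes that spans 435 kb. The cluster held 2 RUNX2 and 3 CBFB peaks, all at its MMP7 and MMP20 end. Both RUNX2 peaks lay between MMP7 and MMP20, at 16.6 kb and 30.1 kb upstream of MMP7, with scores of 51.5 and 54.0 near the bottom of the list, and both overlapped CBFB peaks with scores of 170.4 and 170.6. The third CBFB peak, with a score of 68.2, was in an intron of MMP20. From there to DCUN1D5 no CBFB peak was called over 488 kb, an interval that held 7 protein-coding genes. MMP13, MMP1 and MMP3 shared this interval with MMP27, MMP8, MMP10 and MMP12. A total of 20.8% of all protein-coding genes lay in an interval of this length or longer without a CBFB peak, and 42.2% lay in one as long as the 548 kb without a RUNX2 peak. Within 1 Mb of these 3 genes there were 3.48 or 3.49 RUNX2 peaks per Mb, against a median of 4.28 over all genes. CBFB peaks numbered 10.9 per Mb around MMP13 and 10.5 around MMP1, against a median of 11.8.

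Letters in the promoters were set beside the peaks for the other 9 genes. The RUNX core motif was searched for as TGTGGT or its complement ACCACA, and the motif of AP-1 (FOS and JUN proteins) as TGANTCA, which reads the same on both strands. All RUNX proteins bind the same core, and a match describes letters, not a bound site. In promoters from 250 bases before to 50 bases after the start site, the core was present in 10.6% of 19856 protein-coding genes and the AP-1 motif in 5.39%. The core was present at MMP14 (from -177 to -172, counted back from the start site) and TIMP1 (from -71 to -66). Over all genes, a CBFB peak was found at 58.1% of those with the core in the promoter and at 63.0% of those without, and a RUNX2 peak at 35.1% and 36.3%. AP-1 motifs were present at MMP1, MMP3 and MMP9, where they lay between -79 and -64, and none of these 3 genes had a peak within 25 kb. For the AP-1 motif the CBFB shares over all genes were 52.2% with and 63.1% without it, and the RUNX2 shares 28.5% and 36.6%. The GC box (GGGCGG or its complement), a site of SP family factors, was present in the promoters of MMP2, MMP14, MMP16, TIMP1, TIMP2 and TIMP3, and 5 of these 6 genes had a CBFB peak. Over all genes, 69.8% of those with a GC box and 50.9% of those without had one. This split of the genes was seen in the data and was not tested.

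The gelatinases MMP2 and MMP9 cut denatured collagen and the collagen of basement membranes. They differed in these lists. MMP9 (chromosome 20, 44637547 to 44645200, plus strand) had no peak within 25 kb. Its nearest peaks were a RUNX2 peak with a score of 316 at 36.1 kb and a CBFB peak with a score of 421 at 35.8 kb, which overlapped each other at the start site of ZNF335. Of all protein-coding genes, 59.1% had their nearest RUNX2 peak farther away than MMP9, but only 33.0% had their nearest CBFB peak farther away.

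MMP2 (chromosome 16, 55423612 to 55540603, plus strand) carried 1 RUNX2 and 6 CBFB peaks. The annotated gene is long because 1 of its 8 transcripts starts far upstream, while the canonical transcript starts at 55513110 and spans 27.5 kb. The RUNX2 peak (55510438 to 55511326) lay outside the canonical transcript, with its midpoint 2.23 kb upstream of the start site. Its score of 146 was level with or above 80.5% of the RUNX2 list. It lay wholly inside a CBFB peak (55510373 to 55511438) with a score of 490.2, level with or above 91.1% of the CBFB list, and the midpoints were 23 bp apart. This was the strongest CBFB peak of MMP2.

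The other 5 CBFB peaks of MMP2 overlapped no RUNX2 peak. Their midpoints lay 8.12 kb upstream of the canonical start and 1.4, 8.49, 21.1 and 36.1 kb downstream, the last of them in an intron of LPCAT2. Their scores were 177, 229, 66.8, 84.9 and 71.6. The peaks on either side of the start site, at -8.12 and 1.4 kb, thus had higher scores than those farther inside and beyond the gene.

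The RUNX2 peak of MMP2 was the only RUNX2 peak near any of the 10 genes with a RUNX core within 100 bp of its midpoint, and 2 stretches of 81 bases around cores upstream of MMP2 are shown for this reason. The core of the shared peak lay at 55510785 to 55510790, 94 bp from the midpoint of the RUNX2 peak and 117 bp from that of the overlapping CBFB peak. It also matches the longer form TGTGGTT, read on its own strand. The core of the CBFB-only peak at -8.12 kb lay at 55504943 to 55504948, 49 bp from the midpoint, and matches the longer form too. Both stretches are on the plus strand of GRCh37 (chr16:55510748-55510828 and chr16:55504906-55504986), with the core in capitals.
MMP2 shared peak: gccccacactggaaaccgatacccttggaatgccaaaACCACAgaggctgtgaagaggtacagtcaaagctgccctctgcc
MMP2 CBFB-only peak: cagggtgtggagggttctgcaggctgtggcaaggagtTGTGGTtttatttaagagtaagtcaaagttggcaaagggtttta

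The membrane-type enzymes MMP14 and MMP16 act at the cell surface. MMP14 (chromosome 14, 23305769 to 23318250, plus strand) carried 2 RUNX2 and 4 CBFB peaks, and 13.8% of all protein-coding genes had 2 or more RUNX2 peaks. The first RUNX2 peak (23306815 to 23308660) lay in an intron, 1943 bp downstream of the start site, with a score of 83.9, level with or above 49.8% of the list. The second (23320593 to 23321489) lay 2343 bp beyond the end of the gene, with a score of 69.8, level with or above 35.3% of the list. Both lay wholly inside CBFB peaks that ranked much higher in their own list. The intronic CBFB peak (23306741 to 23308708) had a score of 425, level with or above 88.9% of the list, and the downstream one (23320341 to 23321494) a score of 298, level with or above 81.7%. MMP14 was the protein-coding gene with the nearest start site for both sites. The other 2 CBFB peaks, with scores of 119.7 and 62.3, lay 13.7 and 11.5 kb upstream, closer to the start site of MRPL52, and overlapped no RUNX2 peak.

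The single core of the intronic RUNX2 peak lay 279 bp from its midpoint, and that of the downstream RUNX2 peak lay 202 bp away. The latter was 78 bp from the midpoint of the wider CBFB peak. The core in the MMP14 promoter, named above, was outside both peaks. Stretches of 81 bases around the cores of the shared peaks (chr14:23307976-23308056 and chr14:23320799-23320879, plus strand, GRCh37) are shown to compare them with MMP2. The first core matches TGTGGTT, as both cores upstream of MMP2 do, and the second does not.
MMP14 intron: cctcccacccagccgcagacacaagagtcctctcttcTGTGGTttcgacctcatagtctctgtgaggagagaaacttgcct
MMP14 downstream: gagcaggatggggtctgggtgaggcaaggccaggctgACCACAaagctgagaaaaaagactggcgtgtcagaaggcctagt

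MMP16 (chromosome 8, 89044239 to 89340254, minus strand) is the longest of the 10 genes at 296 kb. It had no RUNX2 peak and 1 CBFB peak (89091024 to 89092072) in an intron, 248 kb downstream of the start site. The score of 147 was level with or above 58.6% of the list, and a RUNX core lay 68 bp from the midpoint. No RUNX2 peak was called within 1 Mb of MMP16, which was the case for 6.57% of all protein-coding genes, and the interval without a RUNX2 peak around it was 3820 kb long. CBFB peaks were sparse there as well, with 0.436 per Mb.

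**Figure D2:**
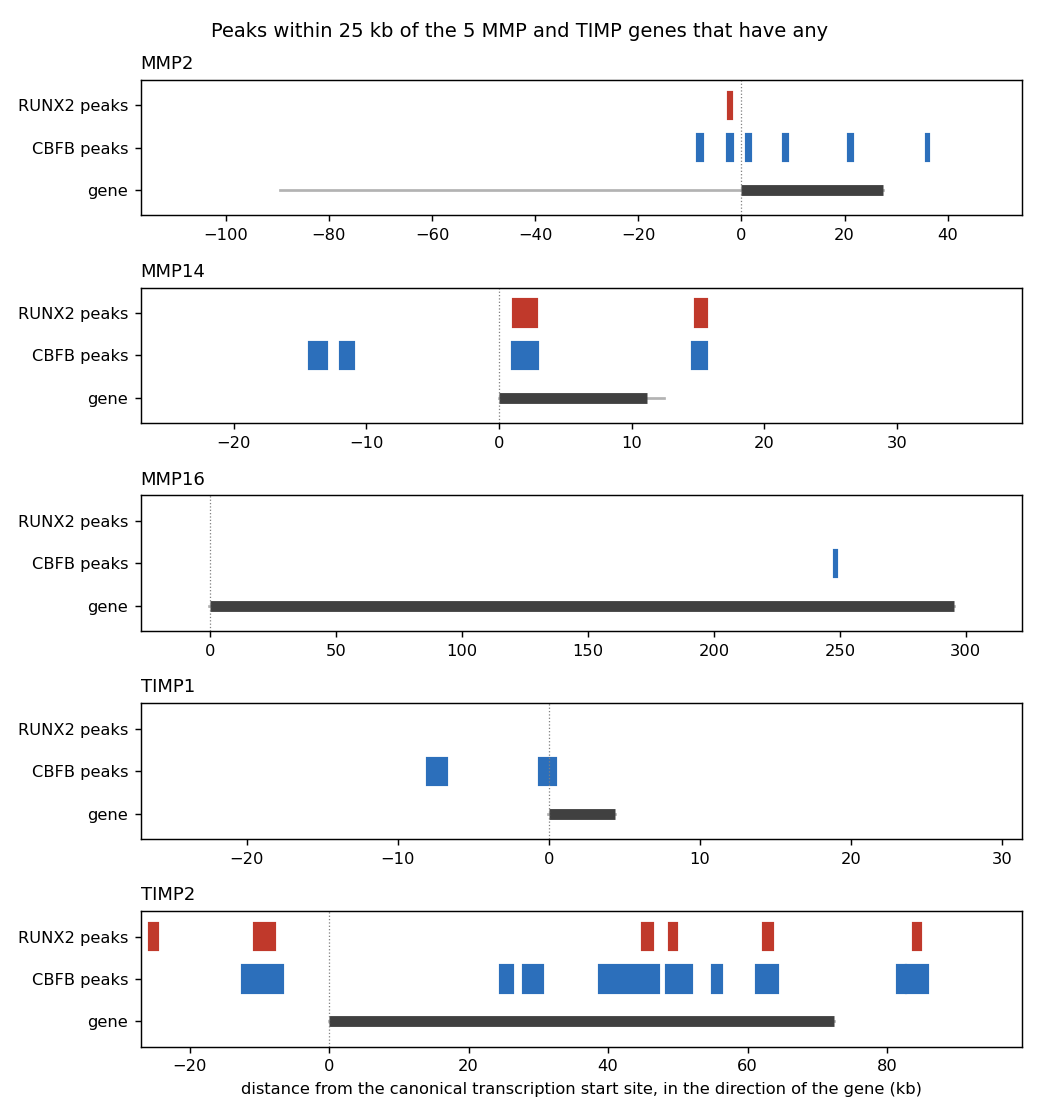
Peaks of both lists drawn to scale along the 5 genes with a peak within 25 kb, against the distance in kb from the canonical start site (dotted line) in the direction of the gene. Red boxes are RUNX2 peaks, blue boxes CBFB peaks, the dark bar is the canonical transcript and the thin grey line the rest of the annotated gene. RUNX2 peaks lie 2.23 kb upstream of MMP2 and at 1.94 and 15.2 kb from the start of MMP14, the latter beyond its end, while the 6 RUNX2 peaks of TIMP2 are spread from -25.2 to 84.3 kb and MMP16 and TIMP1 have CBFB peaks only.

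TIMP2, the inhibitor that also takes part in the activation of MMP2, had the most peaks of the 10 genes. TIMP2 (chromosome 17, 76849059 to 76921469, minus strand) carried 6 RUNX2 and 9 CBFB peaks. Of all protein-coding genes, 0.764% had 6 or more RUNX2 peaks and 1.84% had 9 or more CBFB peaks. Most of the peaks counted for TIMP2 were nearer to the start site of CEP295NL, which overlaps TIMP2, or of USP36. No peak of either list had its midpoint within 5 kb of the canonical start site of TIMP2. The surroundings were also dense in peaks. Within 1 Mb of TIMP2 there were 17.9 RUNX2 and 36.2 CBFB peaks per Mb, more than around 98.6% and 97.7% of all protein-coding genes. The part of this density in the counts at TIMP2 was not tested.

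The strongest RUNX2 peak of TIMP2 (76857835 to 76859211) lay in an intron, 62.9 kb downstream of the start site. Its score of 303 was level with or above 96.1% of the list, the highest rank of any RUNX2 peak at the 10 genes. It lay inside a CBFB peak (76857170 to 76860229) with a score of 1109.7, level with or above 98.3% of the list. By distance alone this site was nearer to the start of USP36, 21.6 kb away. An AP-1 motif lay 9 bp from the midpoint of the RUNX2 peak, while the nearest RUNX core was 368 bp away. From the midpoint of the wider CBFB peak, the nearest AP-1 motif lay 185 bp and the nearest RUNX core 192 bp away.

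Of the other RUNX2 peaks of TIMP2, the one 9.26 kb upstream of the start site (76929247 to 76932217) had a score of 144 and lay in a CBFB peak with a score of 546, and TIMP2 had the nearest start site. Further RUNX2 peaks lay in introns at 45.6 and 49.4 kb, with scores of 119 and 67.8. By distance both were nearer to the start of CEP295NL, 23.4 and 27.2 kb away. The RUNX2 peak with the score 56.1 lay 11361 bp past the end of TIMP2, 0.254 kb upstream of the start of USP36, and held no core. The last RUNX2 peak, with a score of 54.65, was the only one at the 10 genes without a CBFB peak. It entered the count by its edge, 24567 bp from the gene, and its midpoint was beyond 25 kb. The nearest RUNX2 peak outside the reach lay 67.1 kb from the gene, past its end.

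CBFB peaks at TIMP2 were wide. The widest (76874109 to 76882802, score 105) covered 8694 bp, and 4 others that overlapped RUNX2 peaks covered 3060 to 5904 bp, against a median of 1355 bp for overlapping CBFB peaks in the whole list. The 4 CBFB peaks of TIMP2 without a RUNX2 peak had scores of 62.7, 52.7, 114 and 156, all below those of 4 of the 5 shared CBFB peaks. Those with scores of 114 and 156 lay 7.08 and 3.21 kb from the start of CEP295NL, the nearest protein-coding start site. Stretches of the minus strand of GRCh37 around the AP-1 motif of the strongest peak (chr17:76858474-76858554) and around the nearest core of the peak upstream of TIMP2 (chr17:76930876-76930956) are shown because the former lay 9 bp and the latter 184 bp from the midpoint of the RUNX2 peak.
TIMP2 intron, AP-1: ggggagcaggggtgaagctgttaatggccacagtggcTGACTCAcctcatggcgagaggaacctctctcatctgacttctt
TIMP2 upstream, RUNX: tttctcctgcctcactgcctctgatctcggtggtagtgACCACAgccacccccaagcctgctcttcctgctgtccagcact

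TIMP1, a broad inhibitor of secreted MMPs, lies inside an intron of SYN1 (TIMP1 on chromosome X, 47441807 to 47446188, plus strand). It had 2 CBFB peaks and no RUNX2 peak, and the nearest RUNX2 peak was 71.7 kb away in UXT. The stronger CBFB peak (47441167 to 47442285) covered the start site, with its midpoint 0.109 kb upstream of it, and was the only peak of either list to do so at any of the 10 genes. Its score of 219 was level with or above 73.1% of the list. The RUNX core of the promoter lay at 47441764 to 47441769, 41 bp from the midpoint of the peak, and matches TGTGGTT. The other CBFB peak, with a score of 103, lay 7.42 kb upstream. The promoter sequence (chrX:47441585-47441806, plus strand, GRCh37) is shown with the core in capitals because a peak and the core fell together in it.
TIMP1 promoter: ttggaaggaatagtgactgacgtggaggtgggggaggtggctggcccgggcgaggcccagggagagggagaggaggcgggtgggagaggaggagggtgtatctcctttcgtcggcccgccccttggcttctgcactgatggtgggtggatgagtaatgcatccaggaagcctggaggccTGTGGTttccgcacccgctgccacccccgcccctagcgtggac

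TIMP3 is bound to the matrix and inhibits MMPs as well as ADAM proteases. TIMP3 (chromosome 22, 33197691 to 33259028, plus strand) lies within SYN3 and had no peak within 25 kb. The nearest CBFB peak was 77.3 kb upstream, in an intron of SYN3, with a score of 94.0, and TIMP3 was the protein-coding gene with the nearest start site. The nearest RUNX2 peak was 269 kb away. Of all protein-coding genes, 77.8% had a nearer CBFB peak and 78.3% a nearer RUNX2 peak.

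Next, the overlap and ranks of the 9 RUNX2 and 22 CBFB peaks were examined. A CBFB peak shared 1 bp or more with 8 of the 9 RUNX2 peaks, or 88.9% (exact Clopper-Pearson 95% interval 51.8 to 99.7). The share in the whole list was 94.2% by the same rule. The study itself reported a lower share for the same number of RUNX2 peaks, and the reason for the difference was not examined. Conversely, 8 of the 22 CBFB peaks touched a RUNX2 peak, or 36.4% (17.2 to 59.3), against 33.8% in the whole list. These intervals cover counting error only, and both contain the share of the whole list. Where the common stretch had to make up 50% or more of the RUNX2 peak and of the CBFB peak, the RUNX2 share was 44.4% (13.7 to 78.8). No share of the whole list is given for this rule, so this value has no background beside it. In the whole lists, the CBFB peak was the wider one for 96.3% of the overlapping RUNX2 peaks.

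In the CBFB list, shared peaks ranked higher than CBFB-only peaks. The median CBFB peak was level with or above 89.2% of the list for the 8 shared sites and 44.7% for the 14 CBFB-only sites. These medians were 80.0% and 35.9% over the whole list, so the 10 genes showed the order of the whole list. All 3 CBFB peaks in the top 10% of scores overlapped a RUNX2 peak, and they belonged to MMP2 and TIMP2. Of all protein-coding genes, 12.6% had such a CBFB peak and 5.45% a RUNX2 peak in the top 10%. In the RUNX2 list, 1 of the 9 peaks was in the top 10%, at TIMP2. By construction, the top of each list holds 10.0% of its peaks. In 7 of the 8 shared sites, the CBFB peak ranked higher in its list than the RUNX2 peak in its own, as in 84.8% of all 9365 overlapping RUNX2 peaks. The exception was the intronic TIMP2 site with the widest CBFB peak, where the RUNX2 score of 119 was level with or above 71.7% of the list and the CBFB score of 105 with or above 43.0%.

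**Figure D3:**
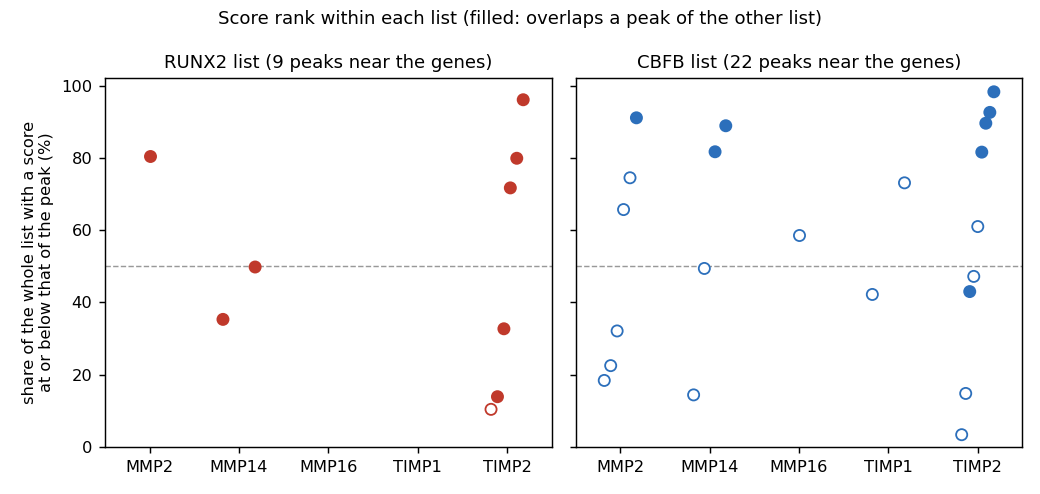
Rank of each peak within its own list, as the share in % of the list with a score at or below it, for the 5 genes with a peak (RUNX2 left, CBFB right). Filled points overlap a peak of the other list and open points do not, and the dashed line is 50%. The filled CBFB points lie at 81.6% or higher except for 1 at TIMP2 (43.0%), and the open ones at 74.5% or lower.

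**Figure D4:**
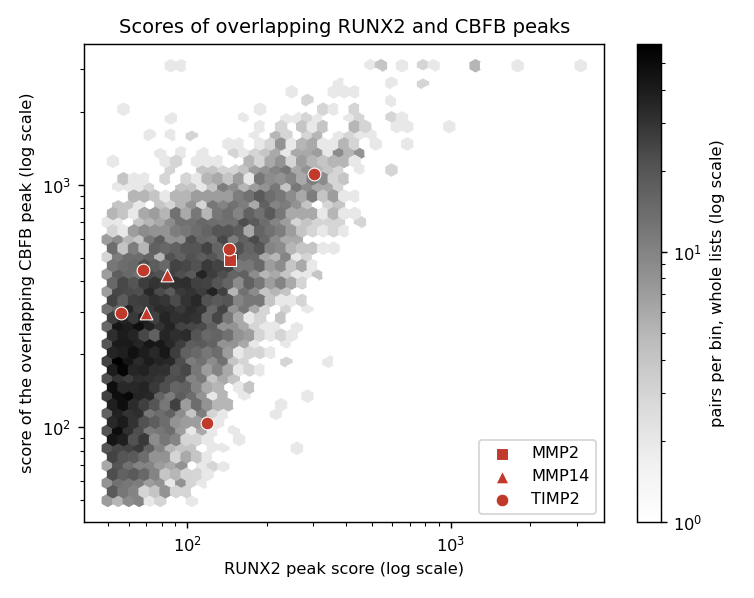
Score of each overlapping RUNX2 peak (x axis, log scale) against that of the overlapping CBFB peak with the highest score (y axis, log scale), in grey as the number of pairs per bin for all 9365 pairs and in red for the 8 pairs at MMP2, MMP14 and TIMP2. The 8 pairs run from a RUNX2 score of 56.1 with a CBFB score of 297 to 303 with 1109.7, and the lowest CBFB score among them is 105, at TIMP2.

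The RUNX core was within 100 bp of the midpoint in 1 of the 9 RUNX2 peaks, against 43.2% of all RUNX2 peaks on chromosomes 1 to 22, X and Y and 13.6% of flanking windows 2 kb away. With 9 peaks, the exact 95% interval of this share ran from 0.281 to 48.2% and contained the share of the whole list. This interval covers counting error only and treats peaks of the same gene as independent. In whole peaks the core was present in 7 of 9, against 78.1% of the list. In the 7 RUNX2 peaks with a core, the nearest one lay a median of 202 bp from the midpoint, against 85 bp over the list. The 9 RUNX2 peaks had a median width of 1199 bp against 937 bp over the list. TIMP2 alone held 6 of the 9 peaks, and none of these differences was tested. Among CBFB peaks, 7 of 22 had the core within 100 bp (31.8%, interval 13.9 to 54.9), against 41.6% of the list, and 21 of 22 had it anywhere in the peak, against 80.9%. The CBFB peak without a core was the one 1.4 kb inside MMP2. Wide peaks have more room for a core, and these 22 had a median width of 1295.5 bp, up to 8694 bp. The median of the CBFB list was 1148 bp. AP-1 motifs lay within 100 bp of the midpoint in 2 RUNX2 peaks, both in introns of TIMP2, and in 13.1% of the whole list. Among the 22 CBFB peaks, 0 had an AP-1 motif that near, against 11.9% of the CBFB list.

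Finally, the other genes of the system were counted. Of 16 further MMP genes and TIMP4, 6 had both kinds of peak, 2 had a CBFB peak alone and 9 had none. The share with both, 35.3%, was close to the 35.1% of all protein-coding genes, and 52.9% had none against 36.9%. The shares of their length groups added up to 5.6 genes with both and 6.56 with none. The peaks in the top 10% of scores were at MMP17, a membrane-anchored enzyme, with a CBFB score of 636, and at MMP25, likewise membrane-anchored, with a RUNX2 score of 225 for a peak 23.6 kb from the gene. Of 22 genes that activate MMPs or regulate proteolysis at the cell surface, 12 had both kinds of peak, 3 a CBFB peak alone and 7 none. Their shares were 54.5% with both and 31.8% with none, against 35.1% and 36.9% of all protein-coding genes. From their length groups, 7.85 genes with both and 7.82 with none added up. Of these genes, 6 had a CBFB peak in the top 10% of scores, against 12.6% of all protein-coding genes and a sum of 2.8 from the length groups. These differences were not tested, and the lists were chosen with earlier results of these data known. PLAT, the tissue plasminogen activator, had a CBFB score of 2396 and a RUNX2 score of 323. Others were THBS2, CTSL, CD44 and PCSK6, with top CBFB scores from 702 for CD44, a surface receptor for hyaluronan, to 1176 for THBS2, a matrix protein that clears MMP2. No gene of these 2 lists had a RUNX2 peak without a CBFB peak.

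**Figure D5:**
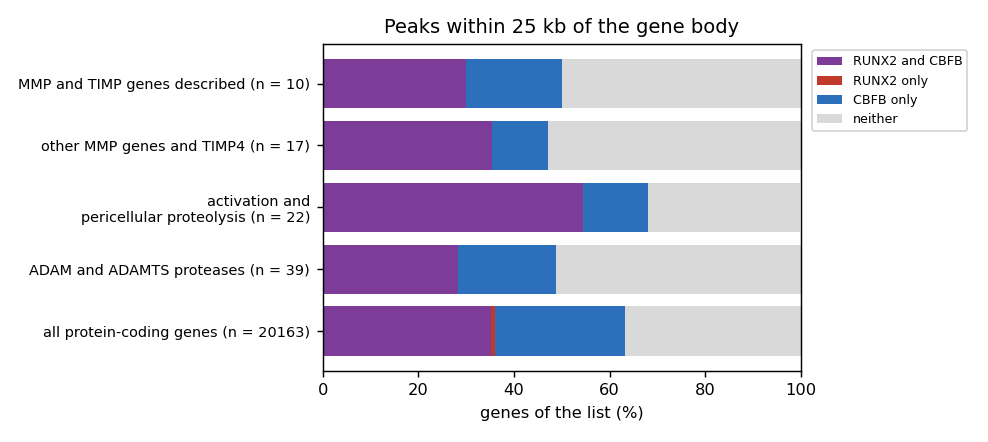
Share of genes in % with RUNX2 and CBFB peaks, RUNX2 peaks only, CBFB peaks only or neither within 25 kb, for the 10 MMP and TIMP genes, 17 other genes (MMP genes and TIMP4), 22 genes of activation and pericellular proteolysis, 39 ADAM and ADAMTS proteases and 20163 protein-coding genes. Genes with neither make up 5 of the 10, 52.9% of the 17, 31.8% of the 22, 51.3% of the 39 and 36.9% of all genes.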

How the data were processed

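Peak lists of RUNX2 and CBFB ChIP-seq in SAOS2 cells were analysed, with groups taken from the sample titles. The submitters' processing notes name CASAVA 1.8.2, MACS 1.4.1 and hg19. The aligner, the calling limit and whether the input served as control are not given in the sources used here. Each peak carries a score that the authors deposited, read here as the MACS score, -10 times log10 of the p-value of a peak, from its range of 50 to 3100. It depends on depth, so scores were ranked within a list only. Peaks were set against GENCODE release 44 mapped to GRCh37, for which a canonical transcript gave the start site. Motifs were searched for on both strands within 100 bp of peak midpoints, in whole peaks, in flanks 2 kb away that touched no peak, and in promoters. Peaks on other contigs (13 RUNX2 and 42 CBFB) were left out of motif shares over the lists. Genes were named by rule, namely the 10 genes and, of the other lists, those with a peak in the top 10% of scores. A promoter and a gene of the other lists are not reported here. The genes, lists and alternatives were chosen with earlier results of these data known. Steps were tested on simulated data. Alternatives covered the reach, the score limit, the list length, the overlap and the motif. Software was Python 3.11.15, pysam 0.24.0, scipy 1.17.1, numpy 2.4.6, matplotlib 3.10.9 and pandas 2.3.3. The input was not analysed here.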

Additional observations from a re-analysis of the deposited data

How the results depend on the processing

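Of 72 recomputed values, 48 stayed within 1.5 times the count or within the interval of the share, and 24 moved. MMP2, MMP14 and TIMP2 had a RUNX2 peak and MMP13, MMP1 and MMP3 none at every reach from 5 to 100 kb. At 100 kb, 5 genes had a RUNX2 peak, with 16 RUNX2 and 45 CBFB peaks. No share of all protein-coding genes is given at this reach, so these counts have no background beside them. The median distance of all protein-coding genes to the nearest RUNX2 peak was 62.9 kb. At or above the median score, 4 RUNX2 and 12 CBFB peaks were left, at 2 and 5 genes, again without a share of all genes beside them. MMP14 had no RUNX2 peak at this limit, as its top one was level with or above 49.8% of the list. In the top 10% of scores, 1 gene had a RUNX2 peak and 2 a CBFB peak, with 1 RUNX2 and 3 CBFB peaks. Of all protein-coding genes, 5.45% had such a RUNX2 peak and 12.6% such a CBFB peak. With the 9941 top CBFB peaks, 10 CBFB peaks were left, of which 7 (70.0%, interval 34.8 to 93.3) overlapped a RUNX2 peak. No share of the cut CBFB list is given beside this value. Over the whole CBFB list, shared peaks ranked higher than CBFB-only peaks (medians of 80.0% and 35.9%). Counting only peaks whose nearest protein-coding start site was that of the 10 genes, a choice made after seeing the data like that of the canonical transcript, left 5 RUNX2 and 9 CBFB peaks. A CBFB peak overlapped 6 of 6 RUNX2 peaks at 5 kb, 7 of 7 at 10 kb and 8 of 8 with midpoints within 25 kb. In the top 10% there was a single RUNX2 peak, which overlapped one (1 of 1, interval 2.5 to 100). The share of the whole list, without these limits, was 94.2%. With an overlap of 50% of each of both peaks the share near the 10 genes was 44.4% (4 of 9). The RUNX core was in 0 RUNX2 and 3 CBFB peaks within 50 bp of the midpoint, in 7 and 21 whole peaks, in 2 RUNX2 peaks as TGTGGT or TGCGGT, and in 3 CBFB peaks as TGTGGTT. Whole peaks of the lists held it in 78.1% (RUNX2) and 80.9% (CBFB). For the 50 bp window and the other motif forms no share of the whole lists is given, so those counts have no background beside them. No paired analysis was possible because there is a single library for RUNX2 and for CBFB. Depth is unknown, so a site missing from the lists cannot be told from one below the calling limit.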

Other observations

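The ADAM and ADAMTS genes encode a related family of metalloproteinases, and TIMP3 inhibits many of them. Of 39 such genes, 11 had both kinds of peak within 25 kb, 8 had a CBFB peak alone and 20 had none. These were 28.2% with both and 51.3% with none, against 35.1% and 36.9% of all protein-coding genes. The genes were long, with a median of 94.5 kb against 27.2 kb, and the shares of their length groups added up to 16.1 genes with both kinds of peak and 11.9 with none. The differences were not tested. Peaks in the top 10% of scores were found at 5 of them, all in the CBFB list, a count to be read against 12.6% of all protein-coding genes and a sum of 6.35 from the length groups. The highest score was 1696 at ADAMTS14, a procollagen N-proteinase. ADAM12 had the most CBFB peaks of these 5 genes (14), together with 5 RUNX2 peaks, and its top CBFB score was 768. ADAM8, ADAMTS1 and ADAM15 had top CBFB scores of 869, 696 and 541.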
